A study of Mus musculus with 4 samples.

Results

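Weak peaks of ATAC-seq, the peaks that only just passed peak calling, were counted along the 19 mouse autosomes in the gonadotrope cell line LβT2. A weak peak was an autosomal peak whose deposited −log10 q was under 2, and a strong peak was one with a −log10 q of 5 or more. Over 4 libraries the authors called 417506 peaks, of which 271684 were weak and autosomal and 58836 were strong and autosomal. Each library's weak peaks were counted by their centre in fixed bins of 5 Mb, and places within a chromosome where the count stepped up or down in all 4 libraries were taken as the edges of candidate copy-number segments. There were 23 such steps, which with the chromosome ends gave 42 segments. The weak peaks chose the segments, so their own steps are described with no test, and what is set beside them comes from strong peaks, reads, genes and sequence. Copy number itself was not measured.

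LβT2, written LbT2 in the labels and LbT2b in the sample titles, is an established mouse line with features of the pituitary gonadotrope, derived from a pituitary tumour of a mouse that carried a viral large T antigen transgene. Cells were plated at 350000 per well, kept overnight in DMEM without serum, and exposed for 6 h to vehicle or to 1 nM activin A, a ligand of the TGFβ family. There were 2 vehicle and 2 activin libraries, each made from 50000 cells. The labels do not say whether the 2 libraries of a group came from separate cultures, so p-values measure only the spread between these libraries, which may be technical.

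In ATAC-seq a transposase cuts DNA and adds sequencing adapters, mainly where chromatin is open and more thinly everywhere else. The reads from any stretch of the genome therefore depend both on how open it is and on how many copies of it the cells hold. Strong peaks mark mostly promoters and active enhancers, whereas a peak near the calling threshold can be a small rise in the thin layer of reads between them. Tumour-derived cell lines commonly carry whole chromosomes or chromosome arms in extra or missing copies, and such changes appear in sequencing data as long blocks of higher or lower read density with sharp edges.

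The step on chromosome 9 is introduced by promoters from either side of it, and the segment of chromosome 11 with the most weak peaks per bin by a promoter within it. Each is among the 2 promoters of its segment with the highest −log10 q over all libraries (the lowest value of the 4). The sequences are the RefSeq promoter windows of GRCm38.p6, from 250 bases before to 50 bases after the start of the gene, written 5′ to 3′ on the strand of the gene with CG dinucleotides in capitals. Aph1b (chr9:66795374-66795673, minus strand) encodes a subunit of γ-secretase and lay on the side with many weak peaks. Sltm (chr9:70542465-70542764, plus strand) encodes an RNA-binding protein related to SAFB and lay on the side with few. Fignl1 (chr11:11808913-11809212, minus strand) encodes an ATPase that acts in DNA recombination.
Aph1b: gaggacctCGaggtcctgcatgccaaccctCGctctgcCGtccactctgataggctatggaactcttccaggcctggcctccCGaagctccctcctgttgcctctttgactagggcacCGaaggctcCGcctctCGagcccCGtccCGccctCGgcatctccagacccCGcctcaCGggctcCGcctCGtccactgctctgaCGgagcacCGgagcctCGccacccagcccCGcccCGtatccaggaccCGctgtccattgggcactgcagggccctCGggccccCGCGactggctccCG
Sltm: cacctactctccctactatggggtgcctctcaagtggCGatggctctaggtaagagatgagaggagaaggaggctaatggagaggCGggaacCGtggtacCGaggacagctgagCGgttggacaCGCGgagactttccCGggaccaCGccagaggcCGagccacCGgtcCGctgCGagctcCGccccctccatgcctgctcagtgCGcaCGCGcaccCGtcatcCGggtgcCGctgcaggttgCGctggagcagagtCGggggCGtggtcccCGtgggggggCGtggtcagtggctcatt
Fignl1: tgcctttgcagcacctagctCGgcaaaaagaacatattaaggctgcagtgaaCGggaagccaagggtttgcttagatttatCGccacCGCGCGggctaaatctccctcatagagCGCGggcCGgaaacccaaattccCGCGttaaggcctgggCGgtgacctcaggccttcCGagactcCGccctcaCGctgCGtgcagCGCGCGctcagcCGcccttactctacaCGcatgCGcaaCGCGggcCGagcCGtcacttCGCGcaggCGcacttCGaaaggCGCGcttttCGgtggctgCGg

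These windows were all rich in G and C but differed in reads. The Aph1b window was 69.3% G or C with 24 CG dinucleotides, that of Sltm 66.3% with 25, and that of Fignl1 62.0% with 34. The promoter peak of Aph1b held 1964, 2064, 2874 and 2147 high-quality reads per kb of peak in vehicle libraries 1 and 2 and activin libraries 1 and 2 (the order used throughout). Reads per kb are not scaled to library depth, so they are compared within a library only. The promoter peak of Sltm, past the step, held 528, 640, 861 and 578 reads per kb. In each library the Sltm value was below the Aph1b value. The deposited fold enrichment was also lower, at 5.56, 5.29, 5.49 and 5.56 for Sltm against 8.14, 7.08, 7.07 and 7.11 for Aph1b. The pair is therefore not matched in peak strength. The Fignl1 peak held 1705, 1963, 2100 and 1528 reads per kb. These are single promoters, picked for their strong signal, and the medians over all strong promoter peaks of a segment are given with the steps.

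The 4 libraries held 172146474 to 224226184 high-quality reads, and vehicle library 2 stood apart in peak number: it had 175437 autosomal peaks, against 69012 to 83124 in the other libraries. Of 8 gonadotrope markers, 7 (Cga, Lhb, Gnrhr, Nr5a1, Foxl2, Gata2 and Pitx1) had a promoter-annotated peak in all 4 libraries, as did 31.7% of the 20665 autosomal protein-coding genes, and Fshb had none in any. Not all of these peaks were clear of the calling threshold: that of Nr5a1 was weak by the definition above in vehicle library 1, and that of Pitx1 in vehicle library 1 and activin library 2. Of 6 markers of other pituitary lineages, 0 had one in all 4 libraries. Prl, Tshb and Pou1f1 had none in any, but neither had 46.5% of all autosomal protein-coding genes.

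Weak peaks numbered 53874, 135112, 44879 and 37819, which was 66.0%, 77.0%, 54.0% and 54.8% of each library's autosomal peaks. Vehicle library 2 had the most, and both vehicle libraries had more than either activin library. The threshold cut through a continuous distribution: 2255, 5203, 2406 and 1956 peaks had a −log10 q from 1.9 to 2, and 1878, 4066, 2037 and 1596 had one from 2 to 2.1. Weak peaks were short, with a median length of 280, 305, 273 and 267 bp and a median fold enrichment, as deposited, of 2.36, 2.20, 2.23 and 2.39. Strong peaks were 757, 802, 828 and 803 bp long, with a fold of 3.80, 3.50, 3.64 and 3.87. Weak peaks were mostly outside promoters. The authors' annotation placed 3.76%, 3.32%, 3.54% and 3.41% of them at promoters and 49.2%, 49.7%, 50.7% and 51.0% in intergenic DNA, whereas 54.2%, 49.4%, 40.6% and 47.1% of strong peaks were at promoters.

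The weak peaks were unevenly spread along the chromosomes, and in the same way in each library. A median bin held 91, 248, 72 and 63 weak peaks, the emptiest used bin 3, 13, 3 and 1, and the fullest 367, 717, 378 and 323. The level of a bin is the log2 of its weak peaks plus 0.5 relative to the library's median bin, so that 1 means a doubling. Over 463 used bins (the first and the last bin of each autosome, 38 in all, were left out), levels correlated between libraries with r of 0.959 to 0.981. That correlation is over neighbouring stretches of one genome and describes these 4 libraries only. Which weak peaks were called differed far more than where they were dense. In the raised segments defined below, 41.4%, 65.6%, 44.2% and 41.1% of a library's weak peaks overlapped no peak of any strength in another library, and in the lowered segments 47.0%, 73.3%, 50.1% and 42.1% did so. Overlap with all 3 others went the other way, at 10.3%, 3.73%, 6.87% and 11.1% in raised and 16.7%, 6.10%, 7.67% and 14.2% in lowered segments. Peaks covered 2.55%, 5.78%, 2.75% and 2.20% of the length of raised segments and 0.740%, 1.31%, 0.921% and 0.761% of lowered ones. With such unequal cover, the shares of raised and lowered segments are not compared.

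**Figure D1:**
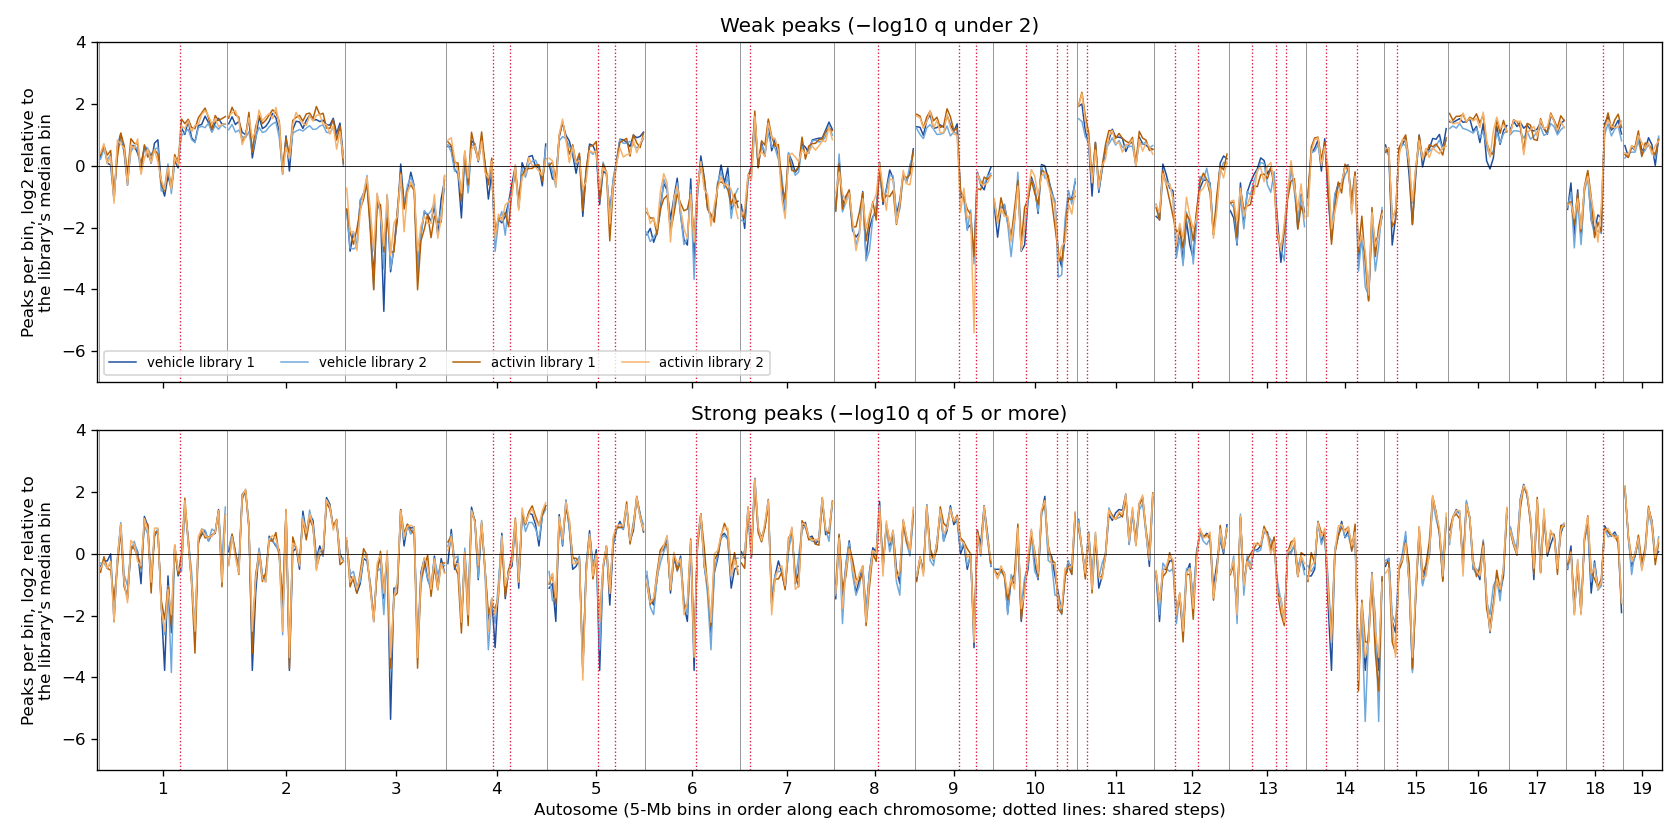
Weak peaks (top) and strong peaks (bottom) per 5-Mb bin along the 19 autosomes, as log2 relative to the library's median bin, with 1 line per library and the 23 shared steps as dotted lines. Weak peaks form plateaus with abrupt edges, such as those on chromosomes 9 and 18, that the 4 libraries share, whereas strong peaks go up and down from bin to bin.

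The plateaus accounted for most of the unevenness of weak peaks and for much less of that of strong peaks. Differences between the 42 segments made up 76.5%, 78.7%, 80.7% and 79.7% of the variance of the weak level over bins, a share that the choice of segments by weak peaks raises. For strong peaks, which did not enter that choice, the same segments made up 28.2%, 31.5%, 31.6% and 30.2%. Strong peaks followed gene number more closely: across the 463 bins they correlated with the number of protein-coding genes at r of 0.822, 0.814, 0.824 and 0.828, and weak peaks at 0.453, 0.428, 0.376 and 0.340. Weak and strong levels also correlated with each other, at r of 0.636, 0.642, 0.575 and 0.542. All these values share the libraries and the gene map, and are descriptions.

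Segments were called raised when their median level was at least 0.5 in all 4 libraries, and lowered when it was at most −0.5 in all 4. There were 8 raised segments of 126 bins, 19 lowered segments of 166 bins and 15 segments between these of 171 bins. Raised segments were 27.2% of the used bins but held 48.9%, 47.1%, 51.5% and 50.7% of the autosomal weak peaks, and lowered segments, at 35.9% of the bins, held 11.8%, 12.4%, 10.9% and 11.9%. A median raised bin held 220, 529, 196 and 156.5 weak peaks and a median lowered bin 32, 91, 27 and 24. Raised segments were the far end of chromosome 1 (125 to 195 Mb), chromosomes 2, 16 and 17 over their whole used length, chromosome 9 from 5 to 70 Mb, chromosome 11 in 2 blocks, and the far end of chromosome 18 (60 to 90 Mb). Lowered segments included all of chromosomes 3, 6 and 10, chromosome 4 from 75 to 100 Mb, chromosome 8 up to 70 Mb, chromosome 9 from 70 to 95 Mb, chromosome 14 past 35 Mb and chromosome 18 up to 60 Mb.

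Measures that did not choose the segments differed between them in the same direction. They come from the same reads as the weak peaks, so they are not independent of them. Strong promoter peaks held a median of 715, 807, 986 and 779 reads per kb in raised segments and 455, 507, 632 and 510 in lowered segments, with segments between at 591, 662, 803 and 631. The background level around strong peaks outside promoters, taken as reads per kb divided by the deposited fold, was 168, 192, 208 and 167 in raised and 88.5, 103, 112 and 89.0 in lowered segments. In each library the order was raised, between, lowered for both measures. The fold itself went the other way: strong promoter peaks had a median fold of 3.86, 3.49, 3.94 and 4.06 in raised and 4.44, 4.05, 4.45 and 4.64 in lowered segments. Promoter peaks and the background of other strong peaks thus both held more reads in raised segments, while the fold of promoter peaks was lower. The background given is not that of the promoter peaks themselves. Strong peaks were chosen by their q, which itself depends on read depth, so the sets compared are not the same kind of promoter on either side.

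Genes were also unequally placed. Raised segments had 49.7 protein-coding genes per 5 Mb, segments between 45.6 and lowered segments 33.4, and the median G and C content of RefSeq promoter windows was 53.3%, 54.0% and 51.0%, against 53.0% over all autosomal promoters in the table. Strong peaks per bin differed less than weak peaks: a median raised bin held 28, 29.5, 47 and 36.5 strong peaks and a median lowered bin 14, 14, 21.5 and 18. How much of the difference in weak peaks goes with gene density was not tested. Weak peaks with few reads were a larger share in lowered segments, where 21.8%, 13.7%, 27.3% and 25.6% of the weak peaks held fewer than 10 reads, against 2.68%, 1.73%, 2.89% and 3.52% in raised segments.

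**Figure D2:**
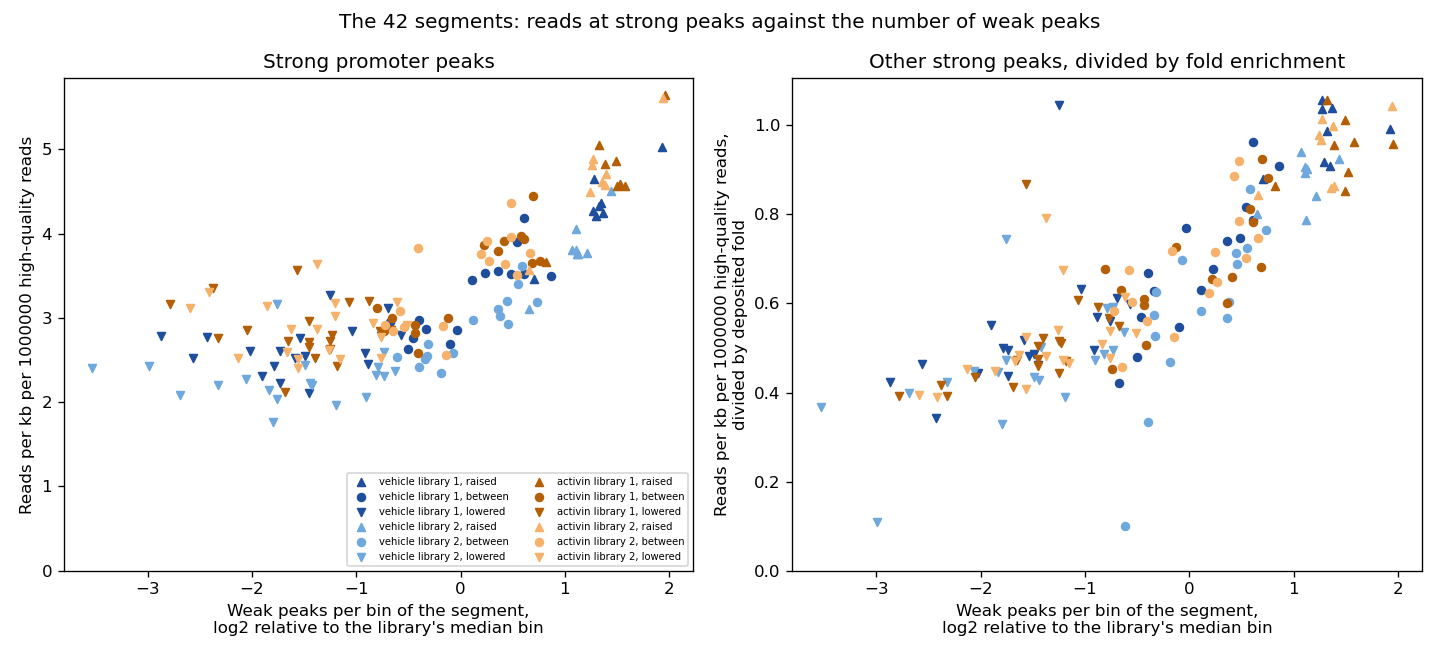
Reads at strong peaks (vertical axis, per kb per 1000000 high-quality reads) against the weak level (horizontal axis, log2 relative to the library's median bin) for the 42 segments, 1 point per segment and library, with promoter peaks on the left and other strong peaks divided by their fold on the right. Raised segments (upward triangles) lie at the top right of both panels, and the highest promoter values belong to the 15-Mb block near the start of chromosome 11; the lowest points on the right rest on few peaks.

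Of the 23 steps 14 were up and 9 down in the direction of rising position, on 14 chromosomes; chromosomes 2, 3, 16, 17 and 19 had none. The median size over the 23 steps was 1.25 on the log2 scale, regardless of direction. The smallest value of any step in any library was 0.58, just above the limit of 0.5 that the choice required. The number of steps rested on the libraries used: without vehicle library 2 it was 12, of which 11 lay at one of the 23, and with 10-Mb bins it was 4. Those 4, on chromosomes 1, 9 (the first of its pair), 14 (the latter) and 18, were found under each of the 13 other settings and library sets tried, and they are described in full.

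The largest step up was on chromosome 18. Up to 60 Mb a median bin held 30, 73, 30 and 26 weak peaks, and past it 228.5, 535.5, 189.5 and 152. The step was 2.91, 2.86, 2.64 and 2.52 on the log2 scale (median 2.75, SD 0.18, 4 libraries). The fullest bin before it, with 77, 192, 65 and 50 weak peaks, was below the emptiest bin after it, with 187, 436, 166 and 147. In the 10 Mb before the change point the libraries had 50, 102, 36 and 35 weak peaks, and in the 10 Mb after it 538, 1197, 429 and 341. The change point, fitted in each library to cells of 100 kb, was at 60.5, 60.4, 60.4 and 60.4 Mb, in or just before Smim3, which encodes a small membrane protein. Gene density ran the other way, from 30.8 to 26.8 protein-coding genes per 5 Mb. Strong promoter peaks had 435, 451, 611 and 466 reads per kb before it and 745, 843, 1081 and 857 after it, a ratio of 1.71 to 1.87. In the 10 Mb on either side of the change point the medians were 456, 511, 682 and 465 before and 711, 887, 1081 and 795 after it. The background level went from 89.0, 105, 116 and 96.0 to 170, 197, 215 and 172, a ratio of 1.79 to 1.91. Strong peaks per bin were higher past the step by 1.05 to 1.19 on the log2 scale, less than the weak peaks.

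Chromosome 9 had the largest step down of the 23. The order depended on the setting: with weak peaks of at least 10 reads, a setting chosen after seeing the data, its median step was −3.36, against −3.55 at 75 Mb on chromosome 13 and −3.56 at 80 Mb on chromosome 14, and over 4 bins on each side it was −2.64, against −2.79 at the latter. From 5 to 70 Mb a median bin held 220, 520, 216 and 150 weak peaks, and from 70 to 95 Mb 24, 92, 27 and 21. The step was −3.17, −2.49, −2.98 and −2.81 (median −2.89, SD 0.29), and the emptiest bin before it, with 181, 458, 160 and 126 weak peaks, was above the fullest bin after it, with 47, 144, 40 and 38. Fitted change points were at 69.4, 69.4, 69.0 and 69.4 Mb, an interval that overlaps Rora, the gene of a nuclear receptor, and the start of Ice2, the gene of a subunit of the little elongation complex. Strong promoter peaks had 735, 841, 1023 and 800 reads per kb before the step and 397, 488, 566 and 448 after it, a ratio of 0.54 to 0.58, and the background ratio was 0.53 to 0.54. In the 10 Mb on either side the promoter medians were 742, 845, 900 and 748 before and 409, 464, 531 and 448 after it. The Aph1b and Sltm promoters shown above are examples from these 2 sides, as are Cdkn2d, the gene of a cyclin-dependent kinase inhibitor, with 2459, 2564, 3487 and 3149 reads per kb, and Myo6, the gene of an unconventional myosin, with 839, 806, 1282 and 806. Gene density went down with the step, from 52.5 to 28.2 genes per 5 Mb, but strong peaks per bin were lower by only 0.42 to 0.71 on the log2 scale. At 95 Mb a further step up of 1.57, 1.10, 0.96 and 1.02 led to a segment with 494, 563, 655 and 514 reads per kb at strong promoter peaks, between those of the other 2 segments in each library. In the 10 Mb before its change point the medians were 401, 519, 607 and 507, and in the 10 Mb after it 448, 480, 594 and 482. They were thus higher after it in vehicle library 1 only.

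On chromosome 1 the step was smaller and its position differed by at most 0.2 Mb between libraries. A median bin held 107, 318, 92.5 and 76 weak peaks up to 125 Mb and 232.5, 575, 208 and 162 past it, a step of 1.12, 0.85, 1.16 and 1.09. The change points, 125.0, 125.0, 125.0 and 125.2 Mb, lay in an interval without a protein-coding gene, between Dpp10 and Actr3, the gene of a subunit of the actin-nucleating ARP complex. Strong promoter peaks had 607, 687, 851 and 654 reads per kb before and 752, 832, 1028 and 820 after it, a ratio of 1.21 to 1.25. In the 10 Mb next to the change point the medians were 592, 689, 968 and 727 before and 714, 848, 918 and 741 after it, so that activin library 1 was lower after it. The background ratio was 1.33 to 1.49, and gene density went from 25.7 to 39.8 per 5 Mb.

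The last of these 4 steps, at 80 Mb on chromosome 14, differed from the others in what went with it. Weak peaks went from 61, 160, 45 and 44 to 16.5, 32, 14 and 11.5 per median bin, a step of −1.86, −2.36, −1.71 and −1.90. The step in strong peaks, at −3.08, −2.65, −3.46 and −3.39, was larger than these values but not than the step of −3.56 in weak peaks of at least 10 reads. Gene density went from 55.2 to 6.25 per 5 Mb. The promoter peaks that remained, 21 to 23 per library past the step, held 477, 537, 752 and 587 reads per kb against 481, 525, 642 and 518 before it (ratio 0.99 to 1.17), lower past the step in vehicle library 1 and higher in the other 3 libraries. The background level past this step, 58.8, 24.1, 93.7 and 69.4 against 103, 118, 123 and 95.1 before it, varied between libraries and rests on few peaks. Olfm4, which encodes a secreted glycoprotein, was the protein-coding gene in the interval of change points, 79.9 to 80.4 Mb.

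**Figure D3:**
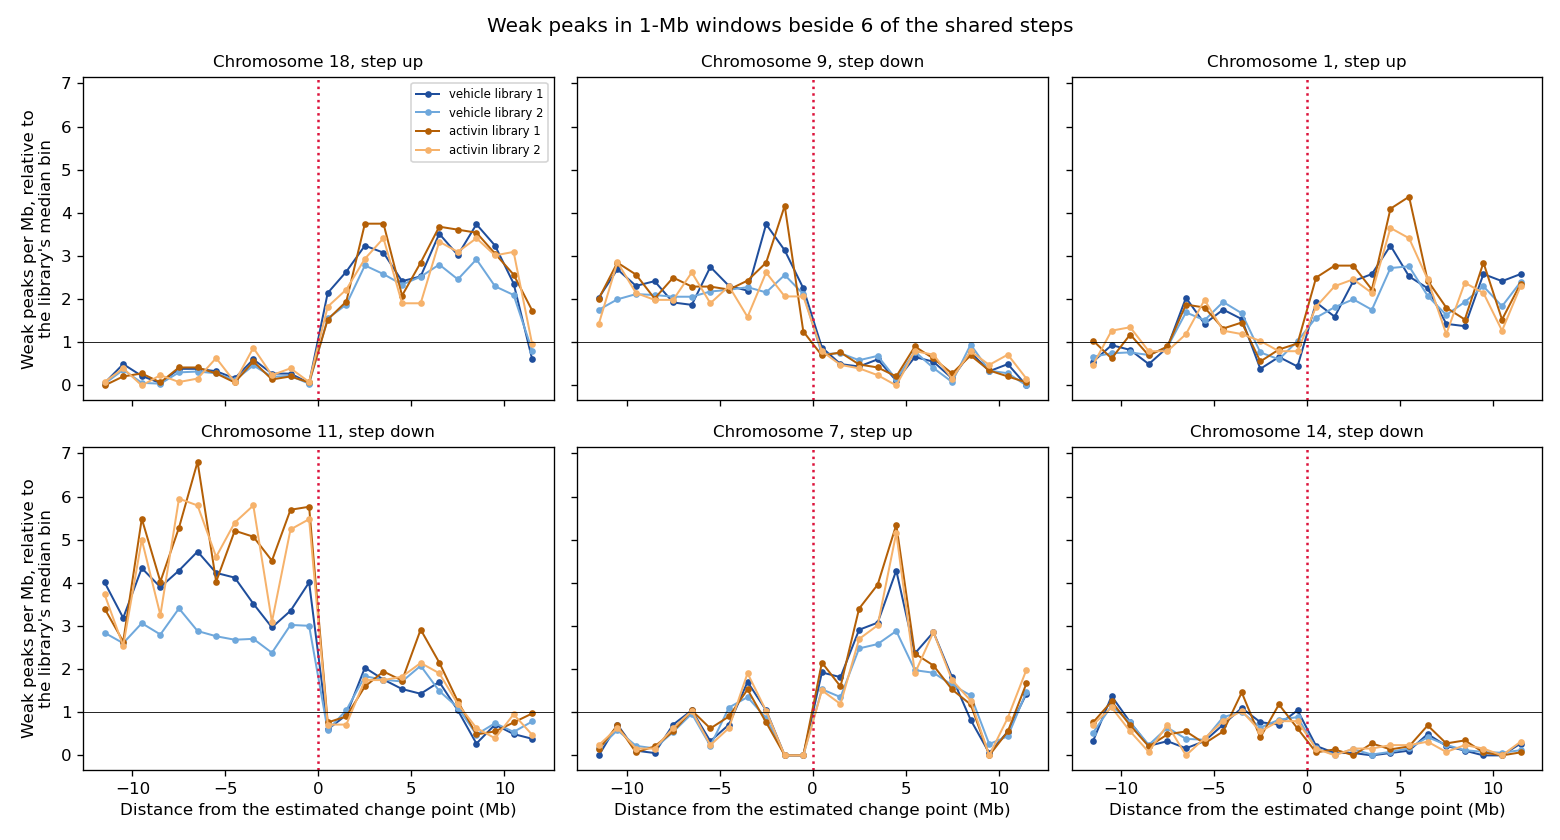
Weak peaks in 1-Mb windows on either side of the fitted change point (horizontal axis, distance in Mb) for 6 steps, divided by the library's median bin per Mb (vertical axis), with 1 line per library. The edges on chromosomes 18, 9 and 11 fall within about a window in all 4 libraries, and on chromosome 7 the windows just before the change point hold no weak peak in any library.

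Chromosome 11 held the segment with the highest weak level, from 5 to 20 Mb. A median bin there had 348, 673, 281 and 244 weak peaks, against 148.5, 390, 127.5 and 99.5 in the rest of the chromosome, a step of −1.23, −0.79, −1.14 and −1.29. Change points were at 17.3, 17.2, 17.3 and 17.2 Mb, in the interval of Ppp3r1 (a calcineurin subunit), Pno1, Wdr92 and C1d. Weak peaks in the 10 Mb before it numbered 718, 1424, 747 and 625, and in the 10 Mb after it 219, 637, 206 and 164. Strong peaks over the same windows were nearly equal in number, at 41, 45, 65 and 54 before and 40, 42, 57 and 48 after. Genes ran against the step, with 23.7 per 5 Mb before it and 71.1 after it, and strong peaks per bin were higher after it by 0.75 to 0.78. Reads at strong promoter peaks had a median of 865, 996, 1266 and 999 per kb in the segment before the step and 595, 686, 820 and 635 in the one after it, a ratio of 0.64 to 0.69. The first values are the highest of any segment in each library. At the edge itself there was no such difference: in the 10 Mb before the change point the medians were 713, 797, 933 and 702, over 8, 8, 11 and 8 promoter peaks, and in the 10 Mb after it 709, 777, 953 and 734, over 29, 29, 30 and 31, higher after it in both activin libraries. H2afv, the gene of a histone variant, and Fignl1 had the strongest promoter peaks of the block, the former with 1861, 2075, 3030 and 2106 reads per kb. This step was not found with weak peaks limited to a −log10 q under 1.5, to those with at least 10 reads, with steps of at least 0.8, or with 10-Mb bins.

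Chromosome 4 had a lowered block from 75 to 100 Mb with a step at either end. The step down was −1.85, −1.91, −1.91 and −1.75, with change points at 75.2, 75.0, 75.1 and 74.7 Mb in an interval without a protein-coding gene, and the step up 1.70, 1.73, 1.56 and 1.39, with change points from 98.5 to 99.6 Mb. Reads at strong promoter peaks were 593, 657, 868 and 668 per kb before the block, 383, 390, 476 and 428 within it, and 492, 571, 671 and 516 after it. At the edge of the step down the difference was smaller. In the 10 Mb before its change point the medians were 563, 669, 912 and 764, and in the 10 Mb after it 553, 568, 782 and 662. That is a ratio of 0.85 to 0.98, with 5 or 6 promoter peaks on a side. At the step up the ratio over such windows was 1.34 to 1.59. The block was poor in genes, at 20.4 per 5 Mb, against 27.9 before it and 67.5 after it. Strong peaks per bin were lower past the step down by 0.70 to 0.97 on the log2 scale, less than the weak peaks. Past the step up they were higher by 1.74 to 2.59, more than the weak peaks in each library. Within the block, 47.5%, 32.6%, 57.3% and 56.2% of the weak peaks held fewer than 10 reads. Its strongest promoter peaks were those of Hook1, the gene of a microtubule-linked adaptor, with 1084, 1078, 1390 and 1261 reads per kb, and Ttc39b, with 733, 809, 1241 and 874. Before the block, the peaks of Zbtb5 and Kif24, the genes of a zinc-finger protein and a kinesin, held 1733, 1965, 2675 and 1807 and 1137, 1253, 2115 and 1478 reads per kb.

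Chromosome 7 went from 38, 73, 24 and 24 weak peaks per median bin before 20 Mb to 139, 372, 117 and 88 after it, while gene density went from 90.0 to 67.5 per 5 Mb. All 4 change points were at 23.3 Mb, inside a cluster of Vmn1r genes, which encode vomeronasal pheromone receptors and have many near-identical copies. In the last 2 windows of 1 Mb before it, each library had 0 weak and 0 strong peaks, and reads that map to several copies can be lost there. What part this has in the step was not tested. Reads at strong promoter peaks were 563, 699, 799 and 648 per kb before and 720, 799, 996 and 775 after it (ratio 1.14 to 1.28), while the background ratio was 0.92 to 1.16, on different sides of 1 between libraries.

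Chromosome 5 had fewer weak peaks from 80 to 105 Mb than on either side, in a segment that was intermediate by the definition above, entered by a step of −0.87, −0.77, −1.15 and −0.90 and left by one of 1.37, 1.13, 1.49 and 1.08. Both steps were found under 7 of the 13 other settings and library sets, and were lost with 10-Mb bins, a −log10 q under 3, steps of at least 0.8, covered length, without vehicle library 2 and without activin library 1. Promoter reads per kb were 612, 668, 877 and 696 before it, 453, 535, 638 and 507 within it and 603, 706, 824 and 648 after it, and the background level was lower within it than on either side in all 4 libraries. In the 10 Mb before the change point of the step down, promoter medians were 588, 619, 886 and 640. In the 10 Mb after it they were 427, 660, 954 and 624, over 4 or 5 promoter peaks, and so higher in vehicle library 2 and activin library 1. At the step up the ratio over such windows was 1.51 to 1.71. Strong peaks per bin were higher past the step up by 1.28 to 1.42, about as much as the weak peaks. Gene density was 28.0, 38.0 and 67.6 per 5 Mb, so the step down ran against it. The change point of the step up was at 108.3 to 108.4 Mb, over Pigg, Gm42517 and Pde6b, the gene of a rod phosphodiesterase subunit. At 35 Mb on chromosome 14 a step of −1.06, −1.09, −1.36 and −1.05 also ran against gene density, which went from 41.3 to 55.2 per 5 Mb. Promoter reads per kb were 605, 647, 818 and 624 before it and 481, 525, 642 and 518 after it.

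Across all 23 steps, 5 ran against gene density (those at 60 Mb on chromosome 18, 20 Mb on 7, 20 Mb on 11, 80 Mb on 5 and 35 Mb on 14), and 18 ran with it. Reads at strong promoter peaks, as medians over whole segments, went in the direction of the weak peaks in all 4 libraries at 5 of those 5 steps and at 11 of the 18. In the 10 Mb on either side of the change point they did so at 3 of the 5 (on chromosomes 18, 7 and 14) and at 6 of the 17 others with a value in all 4 libraries. The background level did so at 4 of 5 and 18 of 18, and the number of strong peaks at 3 of 5 and 18 of 18. Some background values rest on few peaks. At the step of chromosome 15 the background ratio ran from 1.29 to 7.16 between libraries, with 7, 9, 7 and 7 strong peaks in the 10 Mb before it. At 5 steps the promoter ratio was beyond 1.25 or below 0.8 in each library. Change points lay within 0.5 Mb of each other in the 4 libraries at 13 of the 23 steps. The steps on chromosomes 6, 8, 10, 12, 13 and 15 had promoter ratios from 0.88 to 1.34, and at several of them, on chromosomes 6, 12 and 13, libraries lay on either side of 1. The widest scatter of a change point, from 110.6 to 116.7 Mb, was at the last step of chromosome 10, which starts with the lowest segment of all: 12, 21, 10 and 10 weak peaks per median bin between 100 and 115 Mb.

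**Figure D4:**
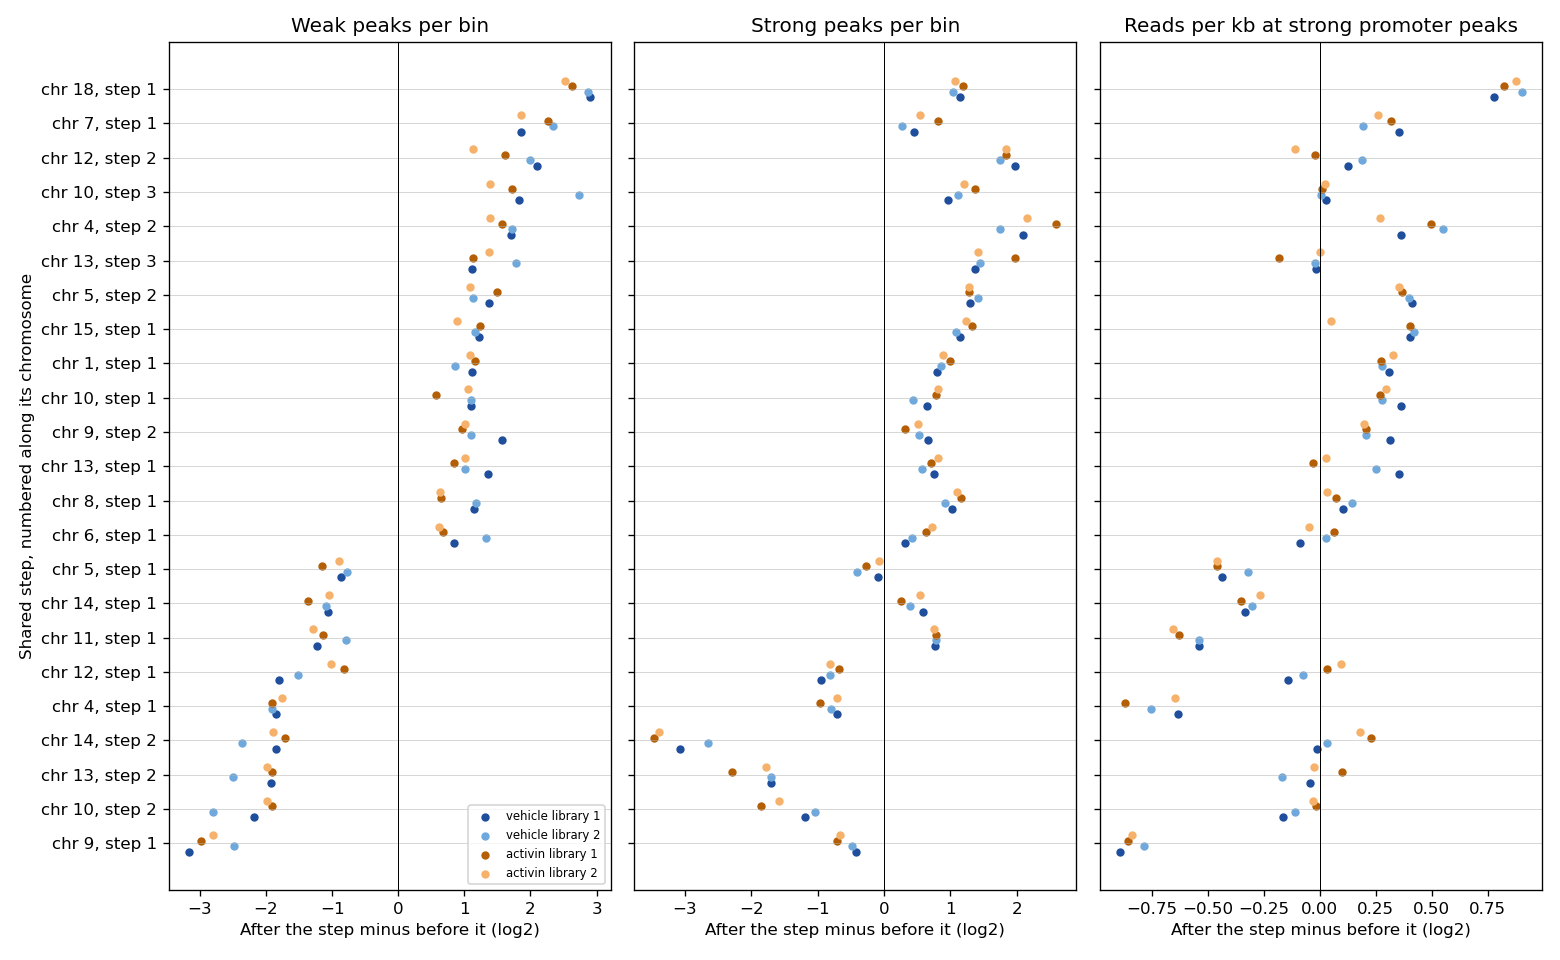
Size of the 23 steps in weak peaks per bin (left), strong peaks per bin (middle) and reads per kb at strong promoter peaks as whole-segment medians (right), as log2 of after minus before, with 1 point per library and steps ordered by the median of the weak peaks. Promoter reads share the direction of the weak peaks at the steps of chromosomes 18, 4, 11 and at the first step of chromosome 9, and lie near 0 at the latter step of chromosome 14 and at several steps of chromosomes 10, 12 and 13.

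Whole chromosomes without a step also differed. Chromosome 17 had 646, 650, 640 and 641 high-quality reads per Mb per 1000000 reads of the library, chromosome 2 611, 610, 607 and 606 and chromosome 16 529, 539, 541 and 541, whereas chromosome 3 had 244, 243, 246 and 255. The range of the 4 libraries on chromosome 3 was below that of every other autosome, and the range on chromosome 17 above. Their weak peaks per Mb were 44.8, 107, 35.9 and 30.9 on chromosome 17, 44.1, 104, 38.2 and 32.1 on chromosome 2, 41.2, 104, 38.1 and 32.5 on chromosome 16, and 6.76, 18.1, 4.95 and 4.78 on chromosome 3. Chromosome 16 had 7.18 protein-coding genes per Mb and chromosome 3 had 6.27, so that these 2 chromosomes differed less in genes than in weak peaks. Chromosome 19, with 12.1 genes per Mb, had 478, 476, 482 and 478 reads and 28.8, 71.1, 22.6 and 19.8 weak peaks per Mb. Across the 19 autosomes, weak peaks per Mb correlated with reads per Mb at r of 0.963, 0.963, 0.953 and 0.948, and with genes per Mb at 0.503, 0.494, 0.465 and 0.454. Weak peaks are called from those same reads, and gene-rich chromosomes also had more reads (r of 0.658 to 0.669), so these values are descriptions.

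**Figure D5:**
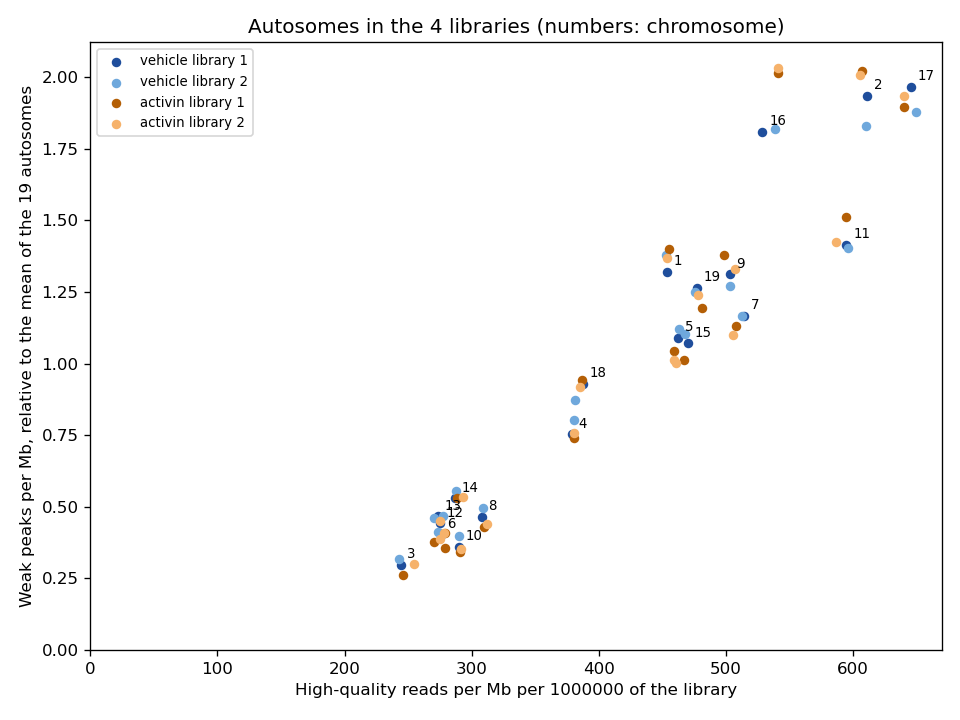
Weak peaks per Mb relative to the mean of the 19 autosomes (vertical axis) against high-quality reads per Mb per 1000000 reads (horizontal axis), 1 point per autosome and library, with the chromosome number beside the point of vehicle library 1. Chromosomes 2, 16 and 17 lie at the top right and chromosome 3 at the bottom left in all 4 libraries.

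Genes of the gonadotrope and pituitary list fell on both kinds of segment: of 32 genes, 12 lay in raised, 9 in intermediate and 8 in lowered segments, and 3 in bins not used. Of all autosomal protein-coding genes, 30.3% lay in raised, 37.7% in intermediate and 26.8% in lowered segments. The list holds hormone genes, lineage transcription factors and members of the activin pathway, in which activin binds type II and type I receptors that phosphorylate SMAD2 and SMAD3, which act with SMAD4. Among hormone genes, Fshb (the FSH β subunit) lay in the raised chromosome 2, while Lhb (the LH β subunit) and Cga (the shared α subunit) lay in intermediate segments of chromosomes 7 and 4. Gh lay in raised and Prl and Tshb in lowered segments.

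The receptor genes Acvr2a and Acvr2b lay in raised chromosome 2 and in an intermediate segment of chromosome 9. The 4 SMAD genes on the list were on raised segments: Smad3 at 63.6 Mb on chromosome 9, before the step down, and Smad2, Smad4 and Smad7 (an inhibitory SMAD) between 73.6 and 76.3 Mb on chromosome 18, after the step up. The promoter peak of Smad2 held 1267, 1319, 1890 and 1474 reads per kb and that of Smad3 904, 1178, 1403 and 1042. Smad7 had 974, 1184, 1582 and 1031, and Smad4 had 750, 930 and 891 in 3 libraries and no promoter peak in activin library 1. The step on chromosome 18 separates these genes from Egr1, a transcription factor through which GnRH acts on Lhb, at 34.9 Mb in the lowered segment, with 782, 840, 1262 and 901 reads per kb. Among lineage factors, Nr5a1 and Lhx3 were on raised chromosome 2, Pou1f1 on raised chromosome 16 and Tbx19 on the raised end of chromosome 1. Gata2 and Isl1 were in lowered segments of chromosomes 6 and 13. Foxl2 lay in the intermediate end of chromosome 9, 3.76 Mb past its step up. Inhba and Fst, the genes of an activin subunit and of follistatin, which binds activin, were in lowered segments of chromosome 13 and had no promoter peak in any library.

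Of 23 genes often gained in tumours, 6 lay in raised, 6 in intermediate and 9 in lowered segments, and of 20 genes often lost, 6, 5 and 7. Egfr, the gene of the EGF receptor, ended at 16.9 Mb on chromosome 11, before the change points at 17.2 to 17.3 Mb and so within the block with the highest weak level, but had no promoter peak in any library. Other gained-list genes in raised segments were Mdm4 on chromosome 1, Erbb2 on 11, Yap1 and Birc2 on 9 and Ccnd3 on 17. Birc2, an inhibitor of apoptosis, had 1242, 1282, 1804 and 1434 reads per kb and Ccnd3, a D-type cyclin, 920, 1170, 1133 and 993.

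Genes of the lost list in lowered segments included Cdkn2a, which encodes the p16 and ARF tumour suppressors, at 89.3 Mb in the lowered block of chromosome 4. Its promoter peak held 441, 454, 702 and 493 reads per kb, above the block's median in each library. Rb1, the retinoblastoma gene, lay in the lowered part of chromosome 14 with 596, 589, 804 and 685 reads per kb, and Apc, a brake on Wnt signalling, in the lowered part of chromosome 18 with 408, 451, 511 and 429. Cdkn1b and Vhl were in lowered chromosome 6, and Smarcb1 and Stk11 in lowered chromosome 10. On the other side, Trp53, Nf1 and Brca1 lay on raised chromosome 11, Atm on the raised part of chromosome 9, Tsc1 on chromosome 2 and Tsc2 on chromosome 17. Atm, a DNA damage kinase, had 812, 899, 1439 and 1160 reads per kb at its promoter. Jun, on the gained list, was in the lowered block of chromosome 4, Pik3ca in chromosome 3, Braf and Met in chromosome 6, Fgfr1 in chromosome 8, Mycn in chromosome 12 and Mdm2 and Cdk4 in chromosome 10.

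Activin was compared with vehicle to see whether the landscape differed between treatments. Per-bin levels of weak peaks, centred on the library's median bin, were tested with limma in 445 bins that had a mean of at least 20 weak peaks. The test called 1 bin, 0.225% of those tested, at a Benjamini-Hochberg adjusted p under 0.05. This bin, from 25 to 30 Mb on chromosome 17, had 213, 463, 100 and 81 weak peaks, so that both activin libraries lay below both vehicle libraries. Its level was lower with activin by 0.66 on the log2 scale (−0.66 ± 0.16 SE, n = 2 per group, limma adjusted p = 0.0249), with centred means of 0.99 for vehicle and 0.33 for activin. Scaled to the library's total of weak peaks instead, 15 bins passed, 6 of them higher and 9 lower, and with covered length 3. At an unadjusted p under 0.05, 59 bins differed, 32 of them higher and 27 lower with activin. The call rested on the libraries: without vehicle library 2, 0 bins passed in limma (28 had an unadjusted p under 0.05), while without activin library 1 the count was 18, and without activin library 2 it was 8. Without vehicle library 1 the bin on chromosome 17 was no longer called. It kept its direction, at a level of 0.90 in vehicle library 2 against 0.47 and 0.36 with activin. Both activin libraries were above both vehicle libraries in 119 bins (26.7%) and below in 70 (15.7%).

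Strong peaks in the same bins gave more calls. Of 437 bins with a mean of at least 5 strong peaks, 20 passed (4.58%), 17 of them higher (3.89%) and 3 lower (0.686%) with activin. Both activin libraries were above both vehicle libraries in 121 bins (27.7%) and below in 88 (20.1%). The smallest adjusted p (limma, 2.45e-05) was in the bin from 140 to 145 Mb on chromosome 4, with 24, 29, 61 and 47 strong peaks and a difference of 0.55 ± 0.10 (SE, n = 2 per group). The bin from 70 to 75 Mb, just past the step down of chromosome 9, was also among them, with 20, 23, 46 and 34 strong peaks (0.41 ± 0.11 SE, limma adjusted p = 0.0158). Of the 20, 1 of the higher and 2 of the lower bins lay in raised segments (122 tested), 9 higher and 0 lower in lowered segments (153 tested), and 7 higher and 1 lower between them (162 tested). Whether segments differ in this was not tested. Strong peaks were more numerous in the activin libraries (19180 and 15302 against 11986 and 12368), which centring on the median bin takes out only on average. The deposited enrichment of reads at transcription start sites, a measure of signal over background, was also higher with activin (3.12 and 3.04 against 2.72 and 2.48). This difference in library quality cannot be told apart from the treatment, for weak or for strong peaks. Scaled to the total, 16 passed, 12 of them higher and 4 lower. These calls also rested on single libraries: the count was 4 without vehicle library 2, 1 without activin library 1 and 10 without activin library 2. With strong peaks at a −log10 q of 10 or more it was 0, with 78 bins at an unadjusted p under 0.05.

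Raised segments held 48.9% and 47.1% of the weak peaks with vehicle, and 51.5% and 50.7% with activin. Group means were 48.0% ± 1.27 and 51.1% ± 0.572 (SD, n = 2 each), a difference of 3.09 percentage points with no overlap of the groups. An exact 2-sided permutation test gave p = 0.33, the smallest value that 2 against 2 libraries allow. All 23 steps were in the same direction in vehicle and activin libraries, which the choice of steps required, so this is not a result about the treatment.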

How the data were processed

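ATAC-seq was done on 2 vehicle and 2 activin libraries, grouped by their titles. The authors' reads were mapped to GRCm38 (mm10) with Bowtie2, peaks were called with MACS2 and annotated with HOMER, per the submitters' processing notes. Calling settings are not given in the sources used here. The deposited broad peak lists, made per library, hold for each peak a score, a fold enrichment (a ratio to the background used by the caller) and −log10 p-values and q-values. Reads per peak come from deposited ataqv reports (version 1.3.1).

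Levels were log2(peaks + 0.5) per 5-Mb bin relative to the library's median used bin. Each chromosome's mean profile was split by least squares into segments of at least 3 bins (penalty factor 3), and steps were kept where all libraries differed by at least 0.5 in the same direction. Change points maximised a Poisson likelihood in cells of 100 kb, searched within 5 Mb of the step. Promoters are peaks so annotated by the authors; genes and promoter windows are RefSeq GRCm38.p6. Activin was compared with vehicle by limma 3.58.1 in R 4.3.3 (lmFit, eBayes with a trend, no block), adjusted by Benjamini-Hochberg. The segmentation and limma steps were tested on simulated data. For the segmentation, the simulated steps were of equal size, larger than the median step here, and noise was independent between bins. That run does not show how well smaller steps are found. Named genes were those of 3 lists (pituitary, often gained, often lost) in or near segments, and the 2 promoters of a segment with the highest lowest −log10 q. Members and lists were chosen with earlier results of these data known.

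Other bin widths, thresholds, step sizes, pseudocounts, filters and scalings, covered length, and leaving out each library were tried. Weak peaks with at least 10 reads were added as an alternative after seeing the data. Replicate numbers are shared by the groups, but the labels do not say what they mark. Depth was 172146474 to 224226184 high-quality reads per library, and reads are not independent molecules. Chromosomes X and Y stayed out of the segments, and some genes of the lists are not reported here by name.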

Additional observations from a re-analysis of the deposited data

Results flagged for a closer look

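Chromosome X was outside the count of autosomal peaks but held weak peaks in each library: 824 and 1857 with vehicle, and 711 and 632 with activin. Per Mb these were 4.94, 11.1, 4.27 and 3.79, against 22.5, 56.3, 18.7 and 15.8 over the autosomes. Strong peaks on X numbered 390, 391, 638 and 504, or 2.34, 2.34, 3.83 and 3.02 per Mb, against 5.00, 5.15, 7.99 and 6.38 on the autosomes.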

How the results depend on the processing

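The number of shared steps, 23, was 4 with 10-Mb bins and 15 when the length covered by weak peaks replaced their number; under 7 other settings it was 16 to 33, and leaving out each library in turn gave 12 to 26. The median size of a step, 1.25, was 1.47 with weak peaks at a −log10 q under 1.5, 1.56 over 4 bins on each side, and 2.10 with weak peaks of at least 10 reads, a setting chosen after seeing the data; leaving out a library gave 1.16 to 1.37. Of 230 values of single steps under these alternatives, 191 moved by less than the spread between libraries, 39 moved further and 0 changed direction. All were measured over the segments already chosen by the weak peaks. Leaving out a library could not change a direction, since the choice of steps required the same direction in all 4 libraries. Nor could it move a value further than the spread, since the libraries left are part of the 4 that set the spread. The 39 that moved further therefore all came from the other settings, and the 191 include values that could not move. For activin against vehicle, the bins called for weak peaks numbered 15 when scaled to the total (6 higher, 9 lower) and 3 with covered length, and leaving out a library gave 0 to 18. For strong peaks the count was 0 at a −log10 q of 10 or more, and leaving out a library gave 1 to 20. The lone library left in a group was then assumed to vary like the other group. The cause of these changes was not tested. The share of weak peaks in raised segments differed by 1.34 to 5.71 points under other thresholds and by 2.20 to 3.99 without 1 library.

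With the replicate number as a block, 26 bins passed for weak peaks (21 higher, 5 lower) and 14 for strong peaks (11 higher, 3 lower). Deviations of same-numbered libraries from their group means correlated at r = 0.05 over 463 bins, and the labels do not say that the numbers pair libraries.

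There was no genomic DNA control, so read density and copy number cannot be told apart from openness here. Bins of lowered segments with 1 to 13 weak peaks set the precision of the lowest levels.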
